A study of Mus musculus with 18 samples.

Results

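The 9 genes described here encode the cytokines of the interleukin-1 (IL-1) family and their inhibitors that a gut lining can make, together with the epithelial cytokines IL-6, IL-15 and TSLP. They are Il1a, Il1b, Il1rn, Il18, Il18bp, Il33, Il6, Il15 and Tslp, taken by gene symbol out of 30869 distinct symbols on the MouseWG-6 BeadChip of Illumina, an array whose beads carry probes of 50 bases for each transcript. They were read by 19 probes, of which 14, covering 8 of the 9 genes, gave a signal above background on at least 4 of the 18 arrays and were tested among 21938 probes. The epithelium of the colon was the source of the RNA, its cells having been gated as EpCAM+ and as negative for CD45, CD3 and a macrophage marker before purification. The 4 groups were wild-type (WT) mice and mice without Mbd2, a protein that binds methylated CpG, in any cell of the body (Mbd2-/-, labelled KO), all on a C57BL/6 background and matched for age and sex, each either naive or given 2% DSS (dextran sulphate sodium, which damages the mucosa and brings on colitis) in the drinking water. Each group held 4 samples, a sample may pool several mice, and nothing in the labels ties a sample to separate cultures or litters, so that p-values measure the spread between these samples. The deletion was present in every cell of the Mbd2-/- mice, not in the epithelium alone. The probe for Mbd2 itself was detected on 0 of 18 arrays and therefore gave no check of genotype.

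IL-1 alpha and IL-1 beta act through the same receptor, IL-1R1, and the protein of Il1rn, the IL-1 receptor antagonist, occupies that receptor without signalling. IL-18 and IL-33 belong to the same family. Gut epithelium stores IL-18 as a precursor that caspase-1 cleaves, and IL-18 binding protein captures the mature IL-18. IL-33 sits in the nucleus and is released on injury to act through ST2. IL-6 signals through gp130, IL-15 sustains intraepithelial lymphocytes, and TSLP acts on dendritic cells and innate lymphoid cells.

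Il1rn was lower in Mbd2-/- than in WT epithelial cells, both with DSS and without, at 2 of its 3 tested probes. Il33 was lower in naive Mbd2-/- cells. Il1b and Il6 rose with DSS in both genotypes, and neither differed between genotypes at an adjusted p under 0.05. Il15 and Il18bp passed no test, and Tslp was not detected. Level is given throughout as the normalized log2 signal of a probe, so that a difference of 1 stands for a 2-fold change, and levels of different probes are not set against each other. A probe counted as called at the thresholds of the study, an adjusted p under 0.01 and an absolute log2 fold change of 1 or more, and a weaker rule, an adjusted p under 0.05 with no fold limit, is given beside it. All p-values are from limma with Benjamini-Hochberg adjustment over the 21938 probes.

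**Figure D1:**
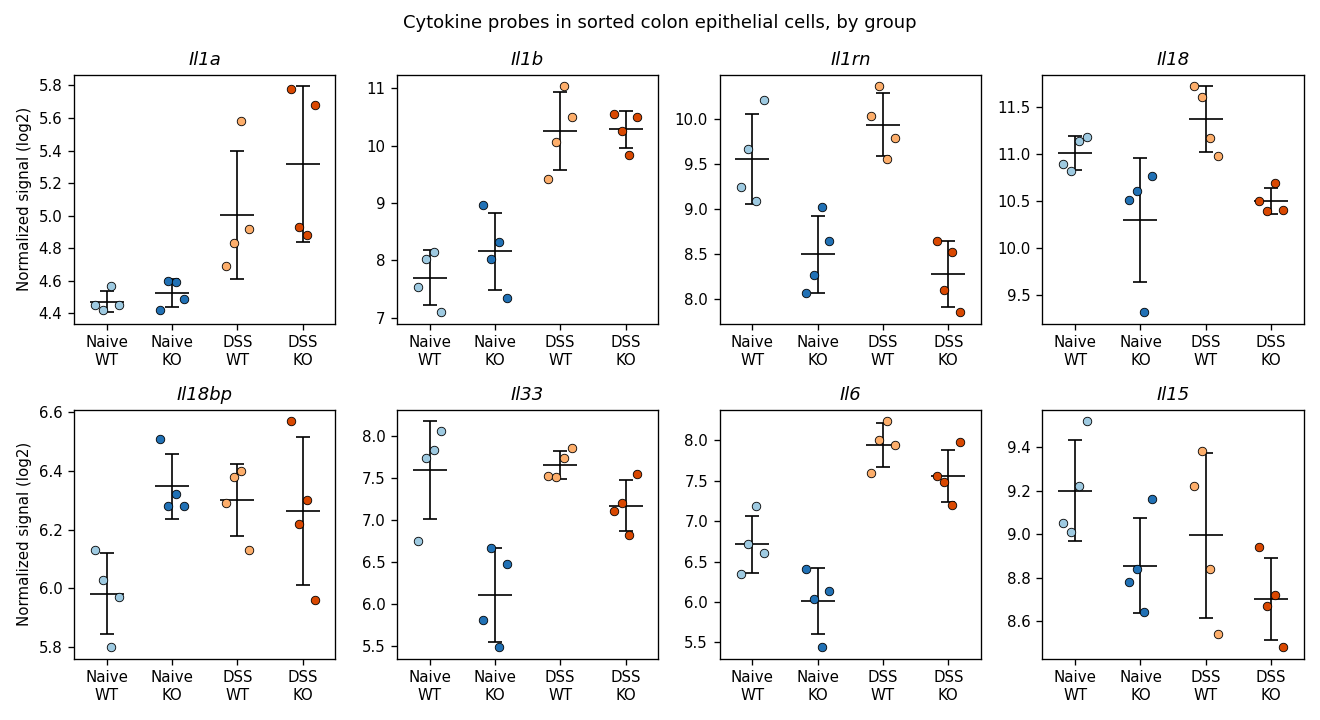
Normalized log2 signal of the brightest tested probe of each of 8 cytokine genes, each gene on its own vertical scale. Points are the 4 samples of a group, horizontal lines are group means and bars are 1 SD. Il1b and Il6 are higher in every DSS sample than in any naive sample of the same genotype, and Il1rn is lower in every Mbd2-/- sample than in any WT sample of the same treatment.

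The sequences before the transcript starts of the 4 genes with calls are shown because Mbd2 binds methylated CG pairs and because Il1b and Il6 moved together. RefSeq entries (GRCm38.p6) were used for 7 of the 9 genes, with 10 starts in all. Il15 had no entry, and Tslp, which was not detected, was left out of the search. Il1rn has 3 starts, and the window of the last, which overlaps that of the middle one, is not printed. The 250 bases before a start are written 5′ to 3′ on the gene's strand, in lower case, with matches on either strand to 3 motifs in capitals: NF-kB (GGANTTTCC), AP-1 (TGANTCA) and C/EBP (TTNNGNAA).
Il1rn, upstream start (chr2:24336610-24336859, + strand): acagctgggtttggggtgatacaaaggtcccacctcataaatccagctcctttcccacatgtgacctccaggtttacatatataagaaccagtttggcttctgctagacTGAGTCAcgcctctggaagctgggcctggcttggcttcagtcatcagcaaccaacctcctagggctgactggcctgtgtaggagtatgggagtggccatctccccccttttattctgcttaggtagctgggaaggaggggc
Il1rn, middle start (chr2:24345041-24345290, + strand): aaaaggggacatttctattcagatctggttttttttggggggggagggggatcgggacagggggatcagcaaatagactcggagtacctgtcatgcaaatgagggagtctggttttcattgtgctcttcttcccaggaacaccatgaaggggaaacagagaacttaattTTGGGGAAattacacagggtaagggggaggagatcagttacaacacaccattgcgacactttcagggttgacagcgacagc
Il33, upstream start (chr19:29924863-29925112, + strand): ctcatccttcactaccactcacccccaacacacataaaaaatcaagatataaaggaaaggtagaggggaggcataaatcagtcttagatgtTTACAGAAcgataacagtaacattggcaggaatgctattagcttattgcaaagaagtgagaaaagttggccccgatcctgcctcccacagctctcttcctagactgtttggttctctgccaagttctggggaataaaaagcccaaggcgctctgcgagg
Il33, downstream start (chr19:29945540-29945789, + strand): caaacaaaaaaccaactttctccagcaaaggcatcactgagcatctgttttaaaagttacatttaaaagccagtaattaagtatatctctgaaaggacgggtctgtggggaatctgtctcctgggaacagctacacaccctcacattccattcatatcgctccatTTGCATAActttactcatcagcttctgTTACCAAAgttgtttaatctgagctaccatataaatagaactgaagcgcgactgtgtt
Il1b (chr2:129371140-129371389, - strand): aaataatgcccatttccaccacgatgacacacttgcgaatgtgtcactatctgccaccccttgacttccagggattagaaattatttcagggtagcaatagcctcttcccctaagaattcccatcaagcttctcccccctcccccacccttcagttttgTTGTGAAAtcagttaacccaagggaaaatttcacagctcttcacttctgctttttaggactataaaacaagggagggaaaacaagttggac
Il6 (chr5:30012864-30013113, + strand): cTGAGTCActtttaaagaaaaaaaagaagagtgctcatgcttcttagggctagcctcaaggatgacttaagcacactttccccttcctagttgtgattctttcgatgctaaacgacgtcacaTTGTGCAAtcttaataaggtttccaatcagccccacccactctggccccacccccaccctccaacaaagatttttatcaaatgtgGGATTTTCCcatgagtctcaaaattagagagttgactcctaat

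Il6 was alone among the 10 member promoters searched in holding the NF-kB motif, at bases -43 to -35, which 1.07% of 32851 mouse promoters of the same length held. It also held AP-1 at -249 to -243 and C/EBP at -128 to -121. AP-1 occurred in 6.75% of all promoters and was found before the upstream start of Il1rn, at -141 to -135, and before Il1a, at -12 to -6. C/EBP occurred in 36.8% of all promoters and was found once before Il1b, at -91 to -84, once before Il1a, Il18bp and the upstream start of Il33, at 2 places before the downstream start of Il33, once before the middle start of Il1rn, at -81 to -74, and at 3 places before its last start, of which 2 overlap. CG pairs numbered 1 before the upstream start of Il1rn, 4 before its middle start, 4 before each Il33 start, 2 before Il1b and 3 before Il6, against a median of 6 over all promoters. Methylation was not measured here, and a match of letters is not a site.

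Il1rn was read by 3 tested probes and by 1 more, ILMN_1233093, that was detected on 0 arrays. At its brightest probe, ILMN_3072427, the level in DSS-treated WT samples was 10.03, 10.36, 9.55 and 9.79, and in DSS-treated Mbd2-/- samples it was 8.64, 8.10, 8.52 and 7.85. The naive WT samples read 9.24, 9.66, 9.09 and 10.21, and the naive Mbd2-/- samples 8.06, 8.26, 9.02 and 8.64. All Mbd2-/- samples lay below all WT samples of the same treatment, while DSS and naive samples of a genotype overlapped. With DSS the group means were 9.93 ± 0.34 (SD, n = 4) in WT and 8.28 ± 0.37 (SD, n = 4) in Mbd2-/- mice, a log2 fold change of -1.66 (SE 0.26, 95% confidence interval -2.21 to -1.11, limma adjusted p = 0.00245), or 3.15-fold lower. In naive mice the difference was -1.05 (95% confidence interval -1.60 to -0.50, limma adjusted p = 0.0293), or 2.07-fold lower, which passed the weaker rule. The difference between both genotype effects was -0.61 (95% confidence interval -1.38 to 0.17, limma adjusted p = 0.595). DSS changed the level by 0.39 in WT (limma adjusted p = 0.367) and by -0.22 in Mbd2-/- mice (limma adjusted p = 0.651), neither of which passed. With arrays scaled to a common median, which also moved the median of all probes, the value in WT was 0.80 (limma adjusted p = 0.0259).

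The call at this probe with DSS held when 15 of the 16 samples were left out in turn. Without DSS-treated WT replicate 2 the adjusted p was 0.011 and the call was lost, with the weaker rule still met. In naive mice the weaker rule was met in 12 of the 16 leave-outs, and the adjusted p reached 0.0857 without naive Mbd2-/- replicate 13. It was also lost without naive WT replicates 10 and 12 and without naive Mbd2-/- replicate 14.

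A second probe of Il1rn, ILMN_3151270, gave the same order of groups. DSS-treated WT samples read 6.58, 6.83, 5.89 and 6.32 and DSS-treated Mbd2-/- samples 5.19, 4.83, 5.38 and 5.20. Naive WT samples read 6.14, 6.53, 5.72 and 6.84 and naive Mbd2-/- samples 4.80, 5.53, 5.40 and 5.59. Again no Mbd2-/- sample reached a WT sample of its treatment. The log2 fold change was -1.25 with DSS (SE 0.242, limma adjusted p = 0.00734, called) and -0.98 in naive mice (SE 0.242, limma adjusted p = 0.0291). Without background correction these became -0.46 (limma adjusted p = 0.0216) and -0.37 (limma adjusted p = 0.0507), and with an offset of 50 they were -0.78 and -0.61. The call with DSS was lost in 8 of the 16 leave-outs, those of DSS-treated WT replicates 1, 2 and 4, of all DSS-treated Mbd2-/- replicates and of naive WT replicate 10. The adjusted p was then at most 0.0307, without DSS-treated WT replicate 2, and the weaker rule held in all 16.

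The third tested probe, ILMN_2682566, did not follow the others and was close to background. It was detected on 14 of 18 arrays, with group means of 5.31 ± 0.51 (SD, n = 4) in DSS-treated WT, 5.42 ± 0.37 in DSS-treated Mbd2-/-, 4.85 ± 0.16 in naive WT and 4.93 ± 0.29 in naive Mbd2-/- samples. The genotype difference was 0.11 with DSS (95% confidence interval -0.37 to 0.58) and 0.08 in naive mice (95% confidence interval -0.40 to 0.56). ILMN_3072427 and ILMN_3151270 start at bases 2371 and 2167 of the record of transcript variant 1, as does the undetected ILMN_1233093, at base 2217, and ILMN_2682566 starts at base 29 of the record of variant 2. In the annotation of the array ILMN_3072427 is typed as specific to an isoform and ILMN_3151270 as common to all. The files do not say which transcripts each probe reads in these cells, and the cause of the disagreement was not tested.

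**Figure D2:**
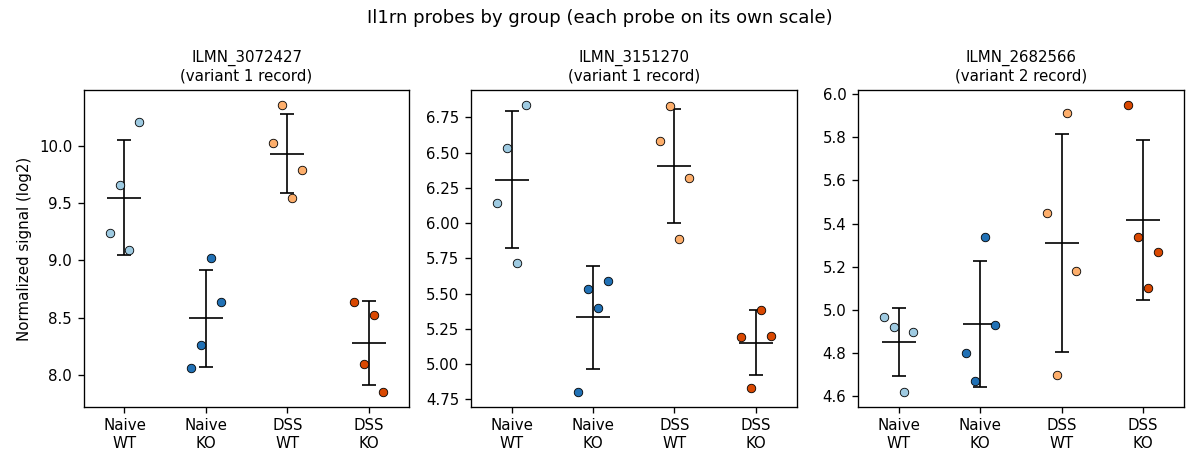
Normalized log2 signal of the 3 tested Il1rn probes by group, each on its own vertical scale, with points for the 4 samples, lines for group means and bars for 1 SD. ILMN_3072427 and ILMN_3151270 are lower in all Mbd2-/- samples of a treatment than in its WT samples, and ILMN_2682566, which lies close to background, is not.

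Il1b, the inflammatory ligand that Il1rn opposes, was read by 1 probe and was detected on all 18 arrays. Its level was 9.42, 10.06, 11.04 and 10.50 in DSS-treated WT samples and 7.53, 8.02, 8.14 and 7.09 in naive WT samples. In Mbd2-/- mice it was 10.55, 10.26, 9.83 and 10.50 with DSS and 8.96, 8.02, 8.32 and 7.34 without. Every DSS sample was above every naive sample, and WT and Mbd2-/- samples of the same treatment overlapped. The rise with DSS was 2.56 on the log2 scale in WT (SE 0.346, limma adjusted p = 0.000464), or 5.89-fold, and 2.12 in Mbd2-/- mice (limma adjusted p = 0.00159), or 4.36-fold, and both calls held in all 16 leave-outs. Between genotypes the difference was 0.03 with DSS (95% confidence interval -0.70 to 0.76) and 0.47 in naive mice (95% confidence interval -0.27 to 1.20), intervals that leave room for a 1.5-fold difference in either direction with DSS.

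Il1a, the alarmin that needs no cleavage to act, was close to background. Its 2 probes were detected on 6 and 5 of 18 arrays, all of them DSS arrays. At ILMN_1243066 DSS-treated WT samples read 4.69, 4.83, 5.58 and 4.92 and DSS-treated Mbd2-/- samples 5.78, 4.93, 4.88 and 5.68, against 4.42 to 4.60 in the 8 naive samples. At ILMN_1227018 DSS-treated WT samples read 4.62, 4.46, 5.01 and 4.65 and DSS-treated Mbd2-/- samples 5.81, 5.22, 4.85 and 5.30, against 4.43 to 4.70 in naive samples. DSS-treated Mbd2-/- samples lay above all naive ones at both probes, and WT samples did so at ILMN_1243066 alone. Since no naive array detected either probe, the naive level is a bound. The group mean of Il1a was at least 1.26-fold higher with DSS in Mbd2-/- mice at ILMN_1243066 (limma adjusted p = 0.0223). It was at least 1.25-fold higher at ILMN_1227018 (limma adjusted p = 0.0134). For WT mice the bound was 1.08-fold at ILMN_1243066 (limma adjusted p = 0.105) and none could be set at the other. The bounds use, for each array, the dimmest signal of any probe above background. DSS samples below that limit were averaged as measured, so that the bounds hold for these means only. At ILMN_1243066 DSS-treated Mbd2-/- samples at 4.93 and 4.88 lay below the naive limit of 4.98. Its bound of 1.26-fold thus rests on those at 5.78 and 5.68. At ILMN_1227018 the DSS-treated Mbd2-/- sample at 4.85 lay below that limit. Both probes passed the detection filter through DSS arrays alone, so that a difference from naive samples was built into their selection and the p-values are given as a description.

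Between genotypes with DSS, ILMN_1227018 was detected on 4 of 5 Mbd2-/- arrays and 1 of 5 WT arrays. The WT mean of 4.68 is thus mostly background, and the size of the difference from 5.30 in Mbd2-/- samples is not given. The probe passed the filter mainly through DSS-treated Mbd2-/- arrays, so that its selection favoured this difference. Its p-value is therefore given as a description (limma adjusted p = 0.0391). ILMN_1243066, detected on 3 of 5 arrays of each genotype, did not pass (limma adjusted p = 0.403). The first of these was lost in 7 of the 16 leave-outs, those of DSS-treated WT replicates 1, 2 and 4, DSS-treated Mbd2-/- replicates 5, 6 and 8 and naive WT replicate 10, with an adjusted p of up to 0.129. The adjusted p for DSS in Mbd2-/- mice at ILMN_1243066 was above 0.05 without DSS-treated Mbd2-/- replicates 5 and 8 and without naive Mbd2-/- replicate 16, at up to 0.0844.

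Il18, the stored epithelial cytokine, was detected on all 18 arrays at its brightest probe, ILMN_1236517. DSS-treated WT samples read 11.72, 11.60, 11.17 and 10.98 and DSS-treated Mbd2-/- samples 10.50, 10.39, 10.69 and 10.40. Naive WT samples read 10.89, 10.82, 11.14 and 11.18 and naive Mbd2-/- samples 10.51, 10.60, 9.31 and 10.76. No Mbd2-/- sample reached a WT sample of its treatment. The difference was -0.87 with DSS (95% confidence interval -1.40 to -0.35, limma adjusted p = 0.049), or 1.83-fold lower, and -0.71 in naive mice (95% confidence interval -1.24 to -0.19, limma adjusted p = 0.101), which did not pass and was -0.38 without naive Mbd2-/- replicate 15. The result with DSS lay at the edge of the weaker rule and met it in 3 of the 16 leave-outs, those of DSS-treated WT replicate 4 and naive Mbd2-/- replicates 15 and 16, with an adjusted p of up to 0.143 in the others. A dimmer probe, ILMN_1240661, gave -0.24 with DSS (limma adjusted p = 0.515) and -0.52 in naive mice (limma adjusted p = 0.129). DSS moved the brighter probe by 0.36 in WT (limma adjusted p = 0.38) and by 0.20 in Mbd2-/- mice (limma adjusted p = 0.669).

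Il18bp, whose protein binds and blocks IL-18, read 6.29, 6.38, 6.40 and 6.13 in DSS-treated WT, 6.57, 6.22, 6.30 and 5.96 in DSS-treated Mbd2-/-, 6.13, 6.03, 5.80 and 5.97 in naive WT and 6.51, 6.28, 6.32 and 6.28 in naive Mbd2-/- samples. Naive Mbd2-/- samples lay above all naive WT samples, and the DSS groups overlapped. The difference in naive mice was 0.36 (95% confidence interval 0.09 to 0.63, limma adjusted p = 0.103) and with DSS -0.04 (95% confidence interval -0.31 to 0.23, limma adjusted p = 0.905). Neither passed.

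Il33, the nuclear alarmin, was detected on all 18 arrays by its single probe. Its level in naive WT samples was 6.75, 7.74, 7.83 and 8.06, and in naive Mbd2-/- samples 5.81, 6.67, 5.49 and 6.48. With DSS it was 7.52, 7.51, 7.73 and 7.85 in WT and 7.10, 7.20, 6.82 and 7.55 in Mbd2-/- samples. The naive groups did not overlap, and with DSS the highest Mbd2-/- sample entered the WT range. In naive mice the log2 fold change was -1.49 (SE 0.273, 95% confidence interval -2.06 to -0.91, limma adjusted p = 0.00621), or 2.80-fold lower in Mbd2-/- cells. With DSS it was -0.49 (95% confidence interval -1.06 to 0.09, limma adjusted p = 0.316). Il33 rose with DSS in Mbd2-/- mice by 1.06 (limma adjusted p = 0.0223), or 2.08-fold, and differed by 0.06 in WT (95% confidence interval -0.52 to 0.64, limma adjusted p = 0.919). The difference between these effects was 1.00 (95% confidence interval 0.18 to 1.82, limma adjusted p = 0.362), so that the genotype effect was not shown to differ between naive and DSS-treated mice.

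The call for Il33 in naive mice was lost in 5 of the 16 leave-outs, those of naive WT replicates 10, 11 and 12 and naive Mbd2-/- replicates 13 and 15, with adjusted p up to 0.0258 and the weaker rule met each time. Fitted on the 8 naive samples alone it had an adjusted p of 0.0509. The rise with DSS in Mbd2-/- mice was lost without DSS-treated Mbd2-/- replicates 6 and 8 and without naive Mbd2-/- replicates 13 and 15, with adjusted p up to 0.0807.

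Il6, a cytokine of acute inflammation and epithelial repair, read 7.59, 8.01, 8.24 and 7.94 in DSS-treated WT samples and 6.34, 6.72, 7.19 and 6.60 in naive WT samples. In Mbd2-/- mice it read 7.56, 7.49, 7.20 and 7.98 with DSS and 6.41, 6.04, 5.44 and 6.14 without. All DSS samples were above all naive samples, and the genotypes overlapped within a treatment. It rose by 1.23 in WT (SE 0.22, limma adjusted p = 0.00238), or 2.35-fold, and by 1.55 in Mbd2-/- mice (limma adjusted p = 0.000643), or 2.93-fold. The call in WT was lost without DSS-treated WT replicate 3, with an adjusted p of 0.0105, and that in Mbd2-/- mice held in all 16 leave-outs. The genotype difference was -0.39 with DSS (95% confidence interval -0.85 to 0.07, limma adjusted p = 0.317) and -0.71 in naive mice (95% confidence interval -1.17 to -0.25, limma adjusted p = 0.0702), and neither passed.

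Il15, which sustains lymphocytes between epithelial cells, had 3 tested probes and 2 that were detected on at most 1 array. At the brightest, ILMN_2610234, group means were 9.00 ± 0.38 (SD, n = 4) in DSS-treated WT, 8.70 ± 0.19 in DSS-treated Mbd2-/-, 9.20 ± 0.23 in naive WT and 8.86 ± 0.22 in naive Mbd2-/- samples, and the groups overlapped in every comparison. Mbd2-/- differed from WT by -0.29 with DSS (95% confidence interval -0.67 to 0.08, limma adjusted p = 0.357) and by -0.34 in naive mice (95% confidence interval -0.72 to 0.03, limma adjusted p = 0.266). The other 2 probes gave -0.25 and -0.13 with DSS and -0.36 and -0.01 in naive mice, and none passed. Tslp had 2 probes, and neither was detected on any of the 18 arrays, so that no level and no comparison is given for it. Its signal was not detectable on these arrays, which does not show that it is absent.

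**Figure D3:**
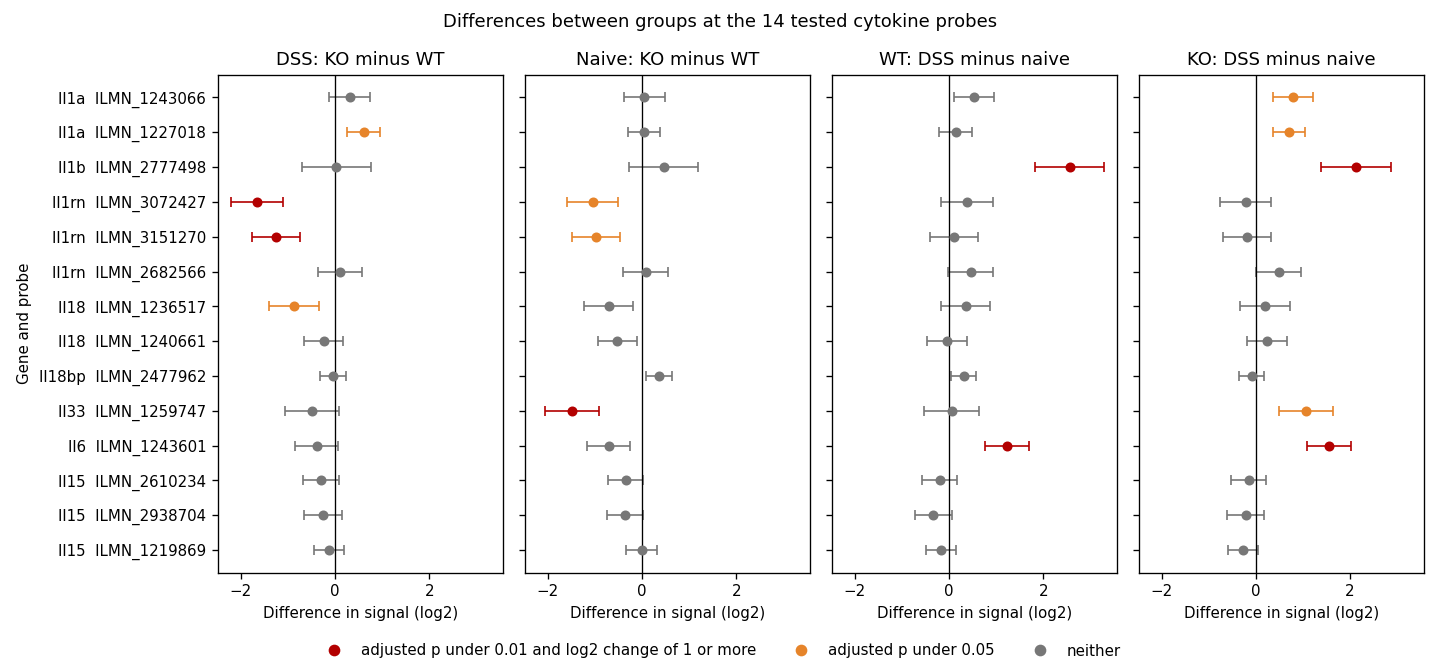
Difference in log2 signal between groups at the 14 tested probes of 8 cytokine genes, in 4 comparisons, with 95% confidence intervals from limma. Red points are calls (adjusted p under 0.01 and absolute log2 fold change of 1 or more), orange points have an adjusted p under 0.05, and grey points have neither. Il1rn at 2 probes with DSS and Il33 in naive mice are the called genotype differences, and Il1b and Il6 are called for DSS in both genotypes.

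Counted over the 14 probes, 2 were called for genotype with DSS, both of Il1rn and both lower, against 0.862% of all tested probes, and 4 met the weaker rule against 5.63%. Among these 4 was Il1a ILMN_1227018, which passed the filter mainly through DSS-treated Mbd2-/- arrays. In naive mice 1 was called, that of Il33, against 0.656%, and 3 met the weaker rule against 5.19%. For DSS in WT mice 2 were called against 1.74% and the same number met the weaker rule against 10.5%, and in Mbd2-/- mice 2 were called against 1.72% and 5 met the weaker rule against 9.42%, among them both Il1a probes, which passed the filter through DSS arrays alone. Groups did not overlap at 3 probes for genotype with DSS against 14.7% of all probes, at 5 in naive mice against 12.3%, at 3 for DSS in WT against 17% and at 5 for DSS in Mbd2-/- mice against 15.9%. The counts for DSS include Il1a, at ILMN_1243066 in WT and at both probes in Mbd2-/- mice. For the difference between both genotype effects 0 of 14 probes met either limma rule, and 3 had an unadjusted p under 0.05 against 10.7% of all probes. Probes of the same gene share their transcript, so that these are not 14 separate observations. At the brightest probe of each gene the median log2 fold change was -0.34 for genotype with DSS and -0.53 in naive mice, with 6 and 5 of 8 genes lower, against medians of -0.003 and -0.001 over all tested probes.

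The labelled cell type was checked against its markers. All 15 epithelial markers were tested, among them Epcam, Cdh1, Krt8 and Vil1, and none was called in any comparison, their summed signal lying between 130000 and 158000 in the 16 samples. Signal of other cell types was present as well. Of 19 myeloid markers 13 were tested, and their summed signal was 1860 to 2600 in naive WT, 2130 to 4330 in naive Mbd2-/-, 3900 to 7460 in DSS-treated WT and 5990 to 6590 in DSS-treated Mbd2-/- samples. With DSS 12 of them were called higher in WT and 6 in Mbd2-/- mice, while Itgam, Itgax and Ccr2 were detected on 0 arrays and Ptprc, the gene of CD45, on 3. In bulk samples fewer cells of a type and less RNA per cell cannot be told apart.

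Signals of neutrophil and fibroblast markers are given beside the rise of Il1b, Il6 and Il1a with DSS. Of 14 neutrophil markers 6 were tested, with summed signals of 148 to 168 in naive WT, 161 to 210 in naive Mbd2-/-, 279 to 943 in DSS-treated WT and 420 to 2860 in DSS-treated Mbd2-/- samples. All 6 were detected on at least 4 of 5 arrays of each DSS group, but S100a9 and Retnlg on 0 of 8 naive arrays and S100a8 on 1, so that these passed the filter mainly through DSS arrays and no count of calls with DSS is given. Of 12 fibroblast markers 11 were tested, at 3880 to 7340 in naive WT, 3870 to 5030 in naive Mbd2-/-, 7870 to 9760 in DSS-treated WT and 5170 to 6520 in DSS-treated Mbd2-/- samples, and 4 were called higher with DSS in WT and 0 in Mbd2-/- mice. The part of myeloid, neutrophil and fibroblast RNA in the rise of Il1b, Il6 and Il1a was not tested.

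Signals of vessel, muscle and fibroblast cells were lower in Mbd2-/- than in WT samples with DSS, where Il1rn and Il18 were lower too. Of the 11 fibroblast markers 0 were called between genotypes, but with DSS all were lower in Mbd2-/- mice in value, with a median log2 fold change of -0.65, and 4 met the weaker rule (Col6a1, Lum, Sparc and Fn1), against 0 in naive mice. All 11 endothelial markers were tested, at 1540 to 2260 in DSS-treated WT, 862 to 1290 in DSS-treated Mbd2-/-, 1220 to 1790 in naive WT and 911 to 1130 in naive Mbd2-/- samples, and 4 were called lower in Mbd2-/- mice with DSS and 0 without. Of 8 smooth muscle markers 7 were tested, at 10200 to 14400 in DSS-treated WT, 4350 to 8050 in DSS-treated Mbd2-/-, 8260 to 14600 in naive WT and 6780 to 9340 in naive Mbd2-/- samples, and 3 were called lower with DSS and 0 without. In naive mice, where Il1rn and Il33 were lower, the median log2 fold change of these lists was -0.45 for endothelium, -0.59 for smooth muscle and -0.12 for fibroblasts, and of their genes 1, endothelial, met the weaker rule. Their part in the lower Il1rn, Il18 and Il33 was not tested. Of lymphocyte markers, 8 of 15 T and NK cell genes and 4 of 7 B and plasma cell genes were tested, 0 were called between genotypes, and Cd8a and Ms4a1 were detected on 0 arrays.

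**Figure D4:**
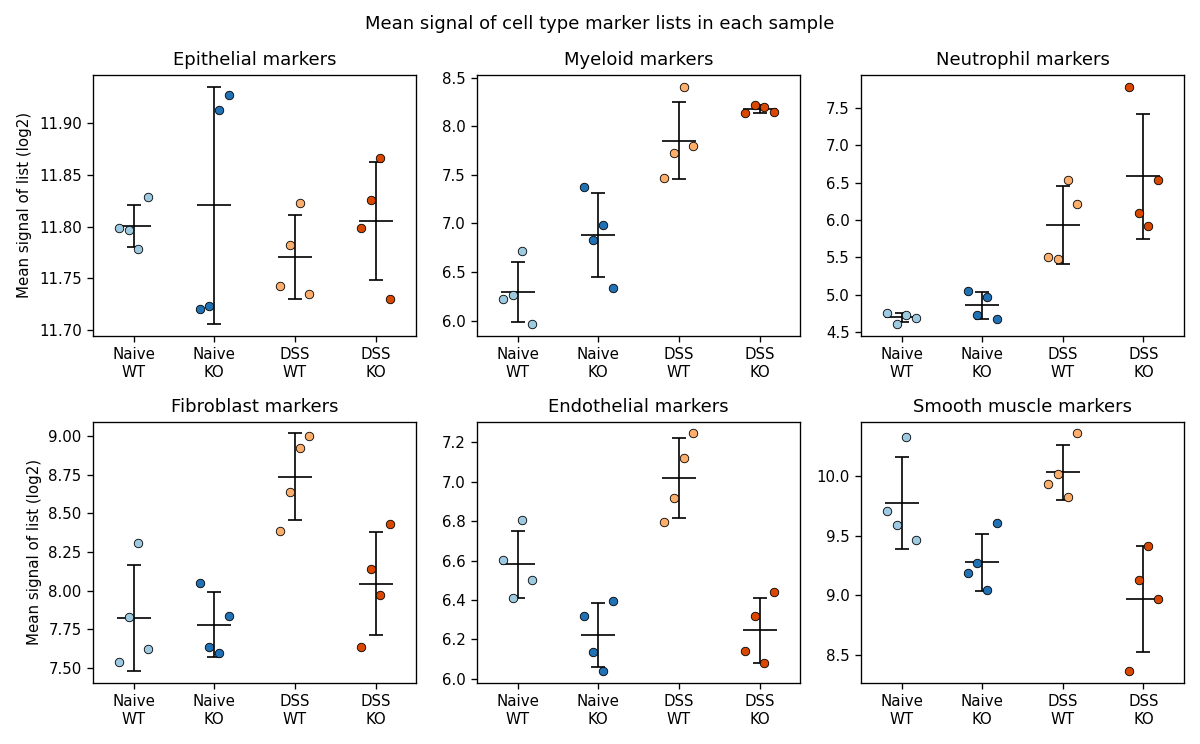
Mean log2 signal of 6 lists of cell type markers in each sample, each list on its own vertical scale, with lines for group means and bars for 1 SD. Myeloid and neutrophil lists are higher with DSS in both genotypes, and the endothelial, smooth muscle and fibroblast lists have lower means in DSS-treated Mbd2-/- than in DSS-treated WT samples. All neutrophil genes but Mmp9 passed the detection filter mainly through DSS arrays, so that a rise of that list was favoured by its selection.

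The genes whose pattern was most like that of each member over the 16 samples, taken by Pearson r among tested genes, are given as a description. Il1b was most like Sla (r = 0.987), Mpeg1 (0.985), the perforin-2 gene of macrophages, and LOC638301 (0.979). Il6 was most like Ccl11 (0.959), the eotaxin gene, Ppp1r18 (0.958) and Mmp2 (0.953), a matrix protease of stromal cells. Il33 was most like Timp3 (0.887), D030041G07Rik (0.882) and Cd200 (0.873), and Il1rn most like Vps37b (0.929), Gpr137b-ps (0.929) and Plekhg3 (0.92). Il18 was most like Arhgap26 (0.954), Jarid1b (0.9) and Ski (0.887), and Il1a most like Sirpb1a (0.936), Acod1 (0.924) and S100a9 (0.918), a calprotectin subunit. Among the members themselves, r was 0.82 between Il1b and Il6, 0.82 between Il1a and Il1b and 0.70 between Il6 and Il33, but -0.11 between Il1b and its opponent Il1rn. After the group means were taken out these became 0.53, 0.53, 0.57 and -0.53. All such values share the 16 arrays and the 4 group means.

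Of 15 receptor and decoy genes for these cytokines 13 were tested. Il1r2, a decoy that binds IL-1 without signalling, was called higher with DSS in WT (1.87, limma adjusted p = 0.000615) and in Mbd2-/- mice (1.77, limma adjusted p = 0.00094), from 5.51 and 5.33 in naive WT and Mbd2-/- samples to 7.38 and 7.10. It was the single call in this list, and 0 of its genes were called between genotypes. Il1rl1, the IL-33 receptor gene, was detected on 5 of 5 WT and 4 of 5 Mbd2-/- arrays with DSS and on 1 of 4 naive arrays of each genotype. Its naive level is thus mostly background and no size is given. Il1rl1 passed the detection filter mainly through DSS arrays and is therefore given without a test. Il6ra was 0.64 higher in naive Mbd2-/- than in naive WT samples (limma adjusted p = 0.0128) and fell by 0.53 with DSS in Mbd2-/- mice (limma adjusted p = 0.019). Of WT arrays, 3 of 5 with DSS and 3 of 4 naive ones detected Il6ra, and all Mbd2-/- arrays did. Il1r1, the signalling IL-1 receptor, Il18r1 and Il15ra passed no test. The genotype difference with DSS was -0.19 for Il1r1 and 0.62 for Il15ra, and none is given for Il18r1, which 1 of 5 DSS-treated WT arrays detected. Il1r1 was detected on 3 of 5 DSS arrays and 3 of 4 naive arrays of each genotype, so that its level lay near background. Crlf2, a TSLP receptor chain, was detected on 0 arrays.

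Of 18 inflammasome and processing genes 12 were tested, and 0 were called between genotypes, where the lowest limma adjusted p was 0.19 with DSS and 0.126 in naive mice. Casp1, the protease that cleaves the IL-1 beta and IL-18 precursors, had mean levels of 12.82, 12.83, 12.52 and 12.58 in DSS-treated WT, DSS-treated Mbd2-/-, naive WT and naive Mbd2-/- samples, and genotype differences of 0.01 and 0.06. Mefv, which encodes the inflammasome sensor pyrin, was detected on 4 of 5 WT and 5 of 5 Mbd2-/- arrays with DSS and on 0 naive arrays, at least 1.66-fold higher with DSS in WT and at least 1.52-fold higher in Mbd2-/- mice. It passed the detection filter through DSS arrays alone and is therefore given without a test. Nlrp3 was detected on 0 arrays and Nlrp6 on 1. All 20 genes of IL-1 receptor signalling, from Myd88 to Tnfaip3, were tested and 0 were called in any comparison. At an adjusted p under 0.05 limma gave Irak4 and Traf6 higher in naive Mbd2-/- mice (0.53 and 0.48), Ikbkg lower in DSS-treated Mbd2-/- mice (-0.37), Myd88 and Nfkbiz higher with DSS in WT (0.41 and 0.47) and 0 genes changed with DSS in Mbd2-/- mice, names that were chosen after their values were seen.

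Of 24 other cytokine genes 16 were tested, and 0 were called between genotypes, 3 with DSS in WT and 1 with DSS in Mbd2-/- mice. Il11, an IL-6 family cytokine, rose by 2.53 with DSS in WT (limma adjusted p = 0.000464) and by 2.20 in Mbd2-/- mice (limma adjusted p = 0.00109). Tnf rose by 1.21 in WT (limma adjusted p = 0.000894) and by 0.92 in Mbd2-/- mice (limma adjusted p = 0.00619), and it was higher in Mbd2-/- than in WT mice by 0.98 when naive (limma adjusted p = 0.00767) and by 0.69 with DSS (limma adjusted p = 0.0404). Myeloid markers were higher in value in Mbd2-/- mice as well, at 12 of 13 genes when naive (median 0.67, 1 gene under the weaker rule) and 11 of 13 with DSS (median 0.46, 0 genes), and their part in Tnf and in the genes that respond to interferon gamma was not tested. Lif rose by 1.09 with DSS in WT (limma adjusted p = 0.00353) and differed by 0.24 in Mbd2-/- mice (limma adjusted p = 0.518). Il7, named after its value was seen, was 0.78 log2 units below WT in DSS-treated Mbd2-/- mice (6.82 against 7.60, limma adjusted p = 0.00632) and did not reach the fold limit.

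Interferon gamma is a product of the lymphocytes that IL-18 drives, and of 20 genes that respond to it 18 were tested. In Mbd2-/- mice 3 were called higher with DSS and 5 when naive, with 0 lower, and 9 and 13 met the weaker rule, the median log2 fold changes being 1.16 and 1.36. Ido1, which breaks down tryptophan, was 3.02 higher in Mbd2-/- mice with DSS (limma adjusted p = 0.00916) and higher when naive as well (9.10 against 4.67, limma adjusted p = 0.000665), where 1 of 4 WT arrays detected it. Psmb8, an immunoproteasome subunit gene, was higher by 2.19 (limma adjusted p = 0.00621) and 3.04 (limma adjusted p = 0.000603), and Nlrc5, an activator of MHC class I genes, by 2.23 with DSS (limma adjusted p = 0.00628) and at least 3.70-fold when naive (limma adjusted p = 0.00586), where 0 of 4 WT arrays detected it. The other called genes in naive mice were Igtp, an interferon-induced GTPase, higher by 2.59 (limma adjusted p = 0.0096), and Tap1, a peptide transporter of antigen presentation, higher by 2.44 (limma adjusted p = 0.00141). Irf1, an interferon regulatory factor, differed by 0.55 with DSS (limma adjusted p = 0.0888), which did not pass, and was 0.83 higher when naive (limma adjusted p = 0.0174). With DSS all 18 tested genes were higher in value in both genotypes, with a median log2 fold change of 1.46 in WT and 1 in Mbd2-/- mice. Of them 8 were called in WT, against 1.74% of all tested probes, and 4 in Mbd2-/- mice, against 1.72%.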

How the data were processed

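Colon epithelial RNA from 16 samples was hybridised on 18 BeadChip arrays, and arrays 4R and 5R, repeats by label of samples 4 and 5, were averaged with them. Per the file headers, the deposited signals are bead intensity values exported with normalization set to none. The deposited table also holds a detection p-value for each probe and array. The submitters' processing notes name lumi and limma, with versions not given in the sources used here.

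The neqc function of limma 3.58.1 (R 4.3.3, offset 16) corrected the background from 936 negative controls, equalised quantiles across arrays and took log2. The offset compresses changes of dim probes. A probe was tested if detected (p under 0.05) on 4 or more arrays, which held for 21938 of 45281. One linear model over the 4 groups was fitted with lmFit and eBayes (two-sided, 12 residual and 4.71 prior degrees of freedom), and p-values were adjusted by Benjamini-Hochberg within a comparison. Arrays detected 18851 to 20618 probes each, and the number of samples limits the precision. Over detected probes the SD of the log2 difference was 0.172 and 0.2 within the repeat pairs and 0.273 to 0.45 between other arrays of the same group. The fit was tested on simulated data.

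All member probes are reported, a gene is represented by its brightest tested probe, the 3 most correlated genes are named for each member with an adjusted p under 0.05, and from each pathway list up to 5 genes past the study thresholds may be named, plus receptors, Casp1 and Irf1. A gene that the rule names whatever its value is not reported here, and genes named outside the rule are marked in the text. The members and lists were chosen with earlier results of these data known. The alternatives were no background correction, scaling to a common median, an offset of 50, no detection filter, only the groups compared, 18 separate arrays, 4R and 5R left out, and each sample left out in turn. The genome build of the probe coordinates is not given in the sources used here, so none is printed. Motifs were searched on both strands of RefSeq promoters (GRCm38.p6).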

Additional observations from a re-analysis of the deposited data

Results flagged for a closer look

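At ILMN_1236517, the brighter Il18 probe, naive Mbd2-/- replicate 15 read 9.31 against 10.51 to 10.76 in the other 3 samples of its group, a gap of 0.83 of the whole range. Without it the difference between naive genotypes at this probe was -0.38 in place of -0.71 (limma adjusted p = 0.203). At ILMN_1240661, the dimmer Il18 probe, naive WT replicate 12 read 6.39 against 5.75 to 5.84 in the others, a gap of 0.864 of the range. Both passed Dixon's 95% critical value for 4 samples. Such gaps were looked for in 56 groups of 4 values, and chance alone flags about 1 in 20.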

How the results depend on the processing

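Each of the 70 log2 fold changes (14 probes, 4 comparisons and the interaction) was recomputed under up to 23 alternatives, and 52 kept their sign throughout while 18 changed it under at least 1. None of the calls changed sign under any of them. No paired analysis was possible because the labels number the 16 samples without repeats across groups.

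For genotype with DSS, 1 probe was called without background correction, 1 with an offset of 50 and 1 without the detection filter, in place of 2, and the weaker rule gave 2 without background correction and 2 without the filter, in place of 4. In naive mice 0 were called without background correction, without the filter or with only the naive groups fitted, in place of 1, and the weaker rule gave 1 without the filter and 0 with only the naive groups, in place of 3. Without background correction 1 probe was called for DSS in WT and 1 in Mbd2-/- mice, in place of 2 each. Without background correction Il33 was -0.80 in naive mice and 0.52 for DSS in Mbd2-/- mice, Il6 0.75 and 0.81 for DSS, and Il1rn ILMN_3151270 -0.46 and -0.37 between genotypes. Il1rn in naive mice missed the weaker rule without the filter and with only the naive groups, at both probes that otherwise met it. Fewer or more tested probes change the adjustment, and background left in place shrinks log2 fold changes. For the other changes the cause was not tested.

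Scaling to a common median moved the median of all tested probes by DSS from -0.01 to 0.241 in WT and from -0.016 to 0.233 in Mbd2-/- mice, and 5 member probes then met the weaker rule in WT, in place of 2. The added ones were Il1rn (0.80 at ILMN_3072427), Il18 (0.76 at ILMN_1236517) and Il18bp (0.50). Under it small DSS differences turned sign, in WT at Il15 (0.20 at ILMN_2610234 and 0.05 at ILMN_2938704) and Il18 (0.12 at ILMN_1240661), and in Mbd2-/- mice at Il1rn (0.13 at ILMN_3072427), Il15 (0.20 at ILMN_2610234 and 0.11 at ILMN_2938704) and Il18bp (0.16). These are below or near that shift. It also turned Il1b between genotypes with DSS to -0.09 and the interaction at Il1rn ILMN_2682566 to -0.02. With 18 separate arrays Il18bp between genotypes with DSS was 0.06.

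With each sample left out in turn, the probes called numbered 0 to 2 for genotype with DSS, 0 to 1 in naive mice, 1 to 2 for DSS in WT and 2 to 3 in Mbd2-/- mice. Those under the weaker rule numbered 2 to 4, 1 to 4, 2 to 2 and 3 to 5. The count of 0 for genotype with DSS came without DSS-treated WT replicate 2. Uncalled log2 fold changes that turned sign ran, between genotypes with DSS, from -0.25 to 0.29 at Il1b, -0.10 to 0.31 at Il1rn ILMN_2682566 and -0.14 to 0.07 at Il18bp. In naive mice they ran from -0.05 to 0.17 at Il1rn ILMN_2682566 and -0.05 to 0.08 at Il15 ILMN_1219869. For DSS in WT they ran from -0.10 to 0.27 at Il1rn ILMN_3151270, -0.11 to 0.11 at Il18 ILMN_1240661 and -0.22 to 0.21 at Il33. For DSS in Mbd2-/- mice they ran from -0.13 to 0.35 at Il18 ILMN_1236517 and -0.19 to 0.02 at Il18bp. For the interaction they ran from -0.18 to 0.22 at Il1rn ILMN_2682566, -0.10 to 0.18 at Il15 ILMN_2610234 and -0.02 to 0.26 at Il15 ILMN_2938704. Probes near background, such as those of Il1a, can show a change only as a bound.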
